A study of Mus musculus with 10 samples.

Results

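The nuclear genes of the respiratory chain were taken as the protein-coding rows of the count table whose symbols begin with Nduf, Uqcr, Cox4 to Cox8 or Atp5, or are Sdha, Sdhb, Sdhc, Sdhd or Cyc1. The rule found 98 of the 56748 rows. They comprised 48 genes named for complex I, 4 for complex II, 9 for complex III, 19 for complex IV and 18 for complex V, the ATP synthase. Symbols are those of the deposited table, some of them older names (Atp5a1 for Atp5f1a). Liver RNA had been sequenced from 5 samples labelled as an Acss2 knockout in liver cells (ACSS2-HKO, here HKO) and 5 with the floxed Acss2 gene (ACSS2-flox, here flox). Both groups had received a high-fat, high-fructose diet for 4 months, and the study asked what ACSS2, which makes acetyl-CoA from acetate, does in steatohepatitis. The sources used here do not give the Cre driver, the strain, the age or the sex, nor do the labels say that every sample was a separate animal, so p-values measure the spread between these samples.

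The respiratory chain sits in the inner mitochondrial membrane. Complexes I and II pass electrons from NADH and succinate to ubiquinone, complex III hands them to cytochrome c, complex IV reduces oxygen with them, and complex V makes ATP from the proton gradient that complexes I, III and IV build up. All but complex II combine nuclear subunits with subunits encoded by the mitochondrial genome, and assembly factors put the parts together. Hepatocytes use the chain to oxidise fatty acids and to power glucose, urea and lipid synthesis.

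Each HKO library held 15413648 to 19275358 counts, and each flox library 16933436 to 17196774. Acss2 itself had 52.8, 59.0, 43.8, 40.2 and 51.4 CPM in HKO replicates 1 to 5, against 73.2, 86.9, 56.5, 129 and 58.6 CPM in flox replicates 1 to 5. HKO replicate 2 lay above flox replicates 3 and 5, so the groups overlapped. The HKO level was 61.2% of that in flox (95% confidence interval 44.6 to 84.0%), which missed the threshold of the gene test used below (log2 fold change -0.71 ± 0.21, edgeR adjusted p = 0.0858). Its counts cover the whole gene, so they check the genotype labels only weakly. Macrophage markers stood apart most among the cell type lists: all 14 were lower in HKO past an edgeR adjusted p of 0.05, and their summed level was 126 to 264 CPM in HKO libraries and 340.0 to 836 CPM in flox libraries. The 12 hepatocyte markers summed to 132821 to 166370 CPM in HKO libraries and 101906 to 156613 CPM in flox libraries, with 0 past the test and 4 at an unadjusted p under 0.05. Of these 12, 11 had a log2 fold change above 0, with a median of 0.28, against 51.0% above 0 over all genes tested. Of the other cell type lists, 0 of 11 stellate cell, 1 of 8 endothelial (Cdh5, lower in HKO), 1 of 3 brown fat (Elovl3, higher in HKO), 0 of 5 red blood cell and 0 of 5 cholangiocyte markers passed, and 4, 1, 2, 0 and 0 were at an unadjusted p under 0.05. Beside these counts for the cell type lists, 3.99% of all genes tested passed and 16.9% were at an unadjusted p under 0.05. CPM here are counts scaled to a common library total after TMM, a correction for differences in library composition. Means are given ± SD (n = 5 in each group) and log2 fold changes, HKO over flox, ± SE.

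Transcripts of the respiratory chain differed little between HKO and flox livers. Of the 98 genes, 89 had enough counts to be tested. None of the 89 passed an edgeR adjusted p of 0.05, over all 14068 genes tested, of which 3.99% passed (0.917% higher and 3.07% lower in HKO). The smallest adjusted p among them was 0.124, for Ndufaf7. At an unadjusted p under 0.05 there were 3 genes (Ndufaf7, Uqcrh and Ndufb1), against 16.9% of all genes tested. The libraries of the groups did not overlap for 2 genes (Ndufaf7 and Uqcrh), against 5.37% of all genes tested. DESeq2 called 0 of the 94 members to which it gave a p-value, against 3.88% of 28675 genes. Of the 94, 4 were at an unadjusted p under 0.05, a share not counted over all genes in DESeq2. In whole tissue, fewer cells of a type and less RNA per cell cannot be told apart.

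The precision of the libraries bounds the size of any difference. For 87 of the 89 genes the 95% confidence interval of the fold change lay within 2-fold in either direction, and for 55 within 1.5-fold. The 2 genes with wider intervals were Ndufa4l2 and Cox5b-ps, a row named as a pseudogene of Cox5b. Among all 14068 genes tested, whatever their level, the interval lay within 2-fold for 72.0% and within 1.5-fold for 5356. The share among genes of similar level was not computed. The median log2 fold change, HKO over flox, was 0.084 over the 89 genes and 0.0083 over all genes tested, with 56 of the 89 above 0. That balance rested on the scaling and on single libraries. With library totals alone the medians were -0.018 and -0.099, and 39 of the 89 were above 0. Without flox replicate 2 the median of the 89 genes was 0.18, with 78 above 0, and without flox replicate 5 it was 0.017, with 50 above 0. By complex, the median was 0.084 for complex I, -0.16 for complex II, 0.069 for complex III, 0.14 for complex IV and 0.097 for complex V. Leaving out 1 library at a time moved these medians over 0.010 to 0.17, -0.24 to -0.069, 0.010 to 0.25, 0.033 to 0.24 and 0.054 to 0.18, in the same order of complexes. The lowest values were without flox replicate 5, and without HKO replicate 1 for complex II. The highest were without flox replicate 2, and without flox replicate 3 for complex IV. With library totals alone the medians of complexes I, III and V lay below 0. As a share of all counts, the 98 genes took 0.991 ± 0.0853% in HKO and 1.03 ± 0.128% in flox (mean ± SD, n = 5 each).

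**Figure D1:**
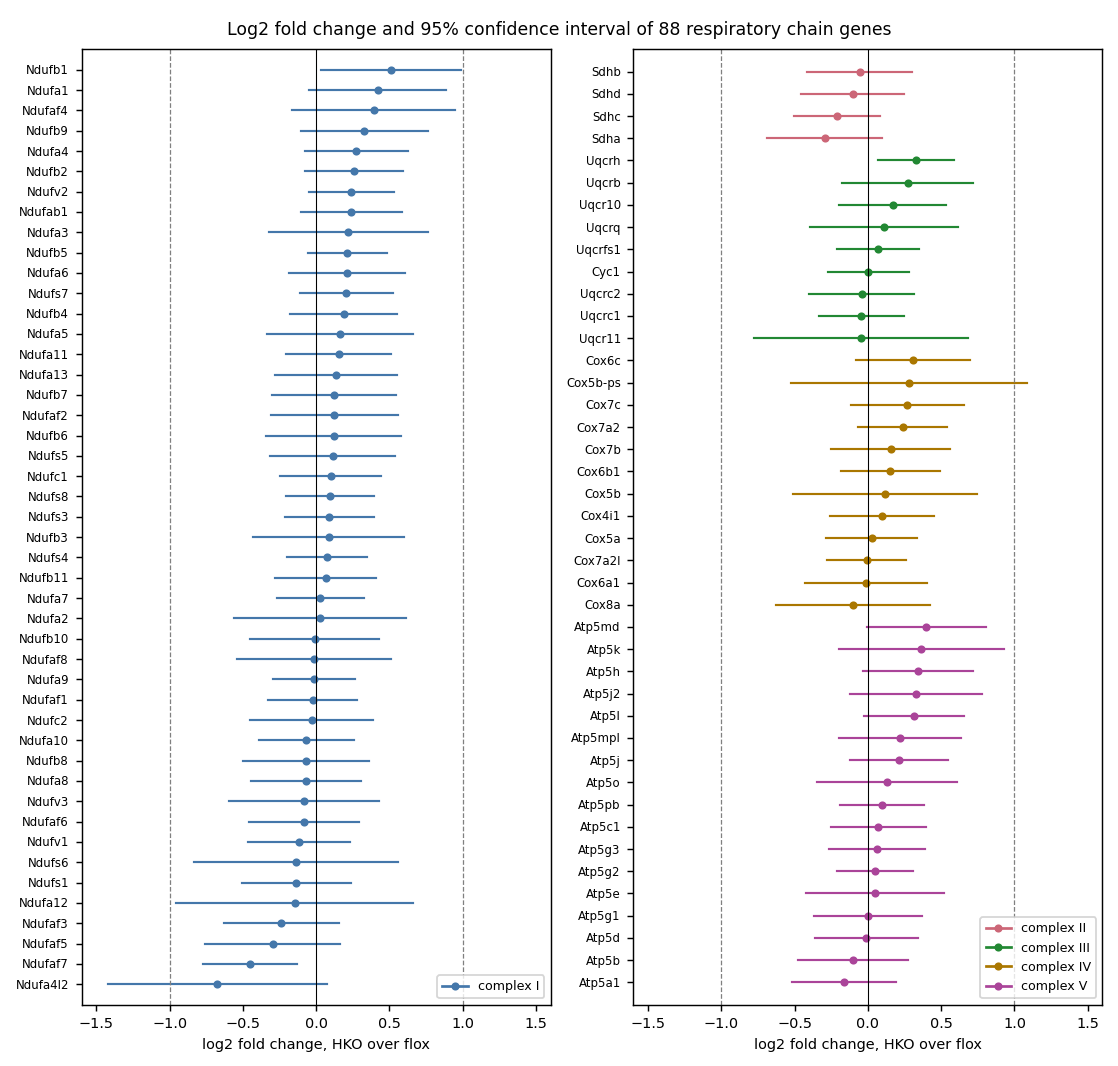
Log2 fold change of 88 tested genes, HKO over flox (horizontal axis), with its 95% confidence interval from the edgeR fit, in colours by complex. Dashed lines mark a 2-fold difference, which the intervals of Ndufa4l2 and Cox5b-ps cross, while the 4 complex II genes all lie left of 0.

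Complex I begins with its core subunits, which bind the cofactors that carry electrons from NADH to ubiquinone. All 7 had intervals within 1.5-fold. Ndufs1, Ndufv1 and Ndufv2 belong to the module that oxidises NADH. Ndufv1, which binds NADH and the flavin, had 126, 106, 95.4, 88.5 and 112 CPM in HKO replicates 1 to 5, against 103, 159.9, 104, 108 and 97.1 CPM in flox replicates 1 to 5. The groups overlapped, and flox replicate 2 stood well above the other flox libraries. Its fitted difference was -0.12 ± 0.16 on the log2 scale (interval -0.46 to 0.23). Ndufv2 averaged 109 ± 8.21 CPM in HKO and 92.5 ± 13.8 CPM in flox (log2 fold change 0.24 ± 0.13, edgeR adjusted p = 0.396), and Ndufs1 averaged 88.3 ± 13.5 CPM in HKO and 96.9 ± 21.9 CPM in flox (-0.13 ± 0.17). Among Ndufs3, Ndufs7 and Ndufs8, which belong to the module that passes electrons on to ubiquinone, the largest log2 fold change was that of Ndufs7 (0.21 ± 0.15, edgeR adjusted p = 0.531).

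The accessory subunits surround that core. Of the 30 tested, 21 had a fitted fold change above 0 (70%, against 51.0% of all genes tested), and their median was 0.10. Ndufb1, a small subunit of the membrane arm, showed the largest value. It had 22.8, 17.5, 23.8, 21.7 and 27.7 CPM in HKO replicates 1 to 5, against 18.9, 16.4, 23.4, 11.9 and 9.17 CPM in flox replicates 1 to 5. All 5 HKO libraries exceeded 3 of the flox libraries, and flox replicates 1 and 3 lay within the HKO range. The log2 fold change was 0.51 ± 0.22 (interval 0.030 to 0.99, unadjusted p = 0.0387, edgeR adjusted p = 0.261). Ndufb1 overlaps Cpsf2 on the other strand over 1081 bases of the gene bodies, and Cpsf2 had 107% as many counts. The sources used here do not say whether the counting used strand. By level per kilobase of the table's gene length, Ndufb11 and Ndufa2 ranked highest of the accessory subunits, and by principal transcript Ndufa6 and Ndufa7 did. Ndufb11 averaged 115 ± 10.1 CPM in HKO and 110.2 ± 25.6 CPM in flox, and Ndufa2 61.5 ± 13.9 CPM in HKO and 60.3 ± 25.1 CPM in flox. The spread of Ndufa2 was wide in both groups, and its interval ran from -0.56 to 0.61. Ndufb11, Ndufa2 and Ndufs1 overlap Rbm10, Tmco6 and Eef1b2 on the other strand, which had 26.7, 10.2 and 138 percent as many counts.

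The 8 tested assembly factors of complex I, which act on the nascent complex and are absent from the finished enzyme, had 2 values above 0 and a median of -0.055. Ndufaf7 is an arginine methyltransferase that acts during assembly. It had 10.9, 11.1, 9.65, 9.90 and 10.7 CPM in HKO replicates 1 to 5, against 13.3, 18.9, 12.7, 13.3 and 13.1 CPM in flox replicates 1 to 5. Every HKO library was below every flox library, and flox replicate 2 stood well above the other flox libraries. The log2 fold change was -0.45 ± 0.15 (interval -0.77 to -0.13, unadjusted p = 0.00972, edgeR adjusted p = 0.124), and the adjusted p ran from 0.0550 to 0.293 over the alternatives. Ndufaf5, which hydroxylates an arginine of NDUFS7, and Ndufaf3, an early assembly factor, also had negative values, of -0.30 and -0.24, and Ndufaf3 overlaps Impdh2 on the other strand, which had 199 percent as many counts. Ndufaf4, the partner of NDUFAF3, was on the other side, at 0.39. The promoter of Ndufaf7 is shown for comparison with those of Uqcrh, the other gene whose groups did not overlap, and of Sdha and Sdhd. It lies at chr17:78936885-78937184 on the plus strand of GRCm38.p6 and, like the others, is the RefSeq window from 250 bases before the gene's start to 50 bases after it. Capitals in these sequences mark matches to 4 motifs of factors known for respiratory chain promoters, and this one holds none.
Ndufaf7: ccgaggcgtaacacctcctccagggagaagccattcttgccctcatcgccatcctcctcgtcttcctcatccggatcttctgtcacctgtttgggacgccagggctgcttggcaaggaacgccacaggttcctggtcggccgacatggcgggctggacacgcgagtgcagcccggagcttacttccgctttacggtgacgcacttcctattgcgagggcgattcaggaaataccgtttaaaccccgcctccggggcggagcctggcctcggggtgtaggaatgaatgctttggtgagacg

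Ndufa4 and its paralogue Ndufa4l2 carry complex I names, although the NDUFA4 protein is now known as a subunit of complex IV. Ndufa4l2 is known as a gene induced by hypoxia. Ndufa4 averaged 232 ± 21.2 CPM in HKO and 191 ± 41.6 CPM in flox (log2 fold change 0.27 ± 0.16, edgeR adjusted p = 0.435) and had the highest level of any gene named for complex I, at 168 CPM per kilobase in HKO and 139 in flox. Ndufa4l2 was read at a far lower level, with 1.04, 1.76, 0.793, 0.835 and 1.21 CPM in HKO replicates 1 to 5, against 1.22, 1.34, 2.13, 3.04 and 1.31 CPM in flox replicates 1 to 5. HKO replicate 2 and flox replicates 1, 2 and 5 overlapped. Its log2 fold change was -0.67 ± 0.35 (interval -1.42 to 0.073, edgeR adjusted p = 0.355), and it rested on 91 counts in all HKO libraries and 160 in all flox libraries. Without flox replicate 4 it was -0.40 (edgeR adjusted p = 0.632). For each 1000 counts of Ndufa4 there were 4.22, 8.98, 3.19, 3.68 and 5.05 of Ndufa4l2 in HKO replicates 1 to 5, against 6.57, 5.58, 10.1, 15.9 and 10.3 in flox replicates 1 to 5. The groups overlapped through HKO replicate 2. The log2 of this ratio was 0.93 lower in HKO (difference -0.93, exact two-sided permutation test, p = 0.0397, n = 5 and 5), the only ratio of paralogues with at least 10 counts of both genes in every library. The test's threshold was missed when any of 7 libraries was left out, with p up to 0.0794, and without flox replicate 4 the difference was -0.73. The 3' end of Shmt2, on the other strand, overlaps Ndufa4l2 by 32 bases. Shmt2 had 1.25e+04 percent as many counts, and without strand the reads of the pair cannot be told apart there.

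Complex II, succinate dehydrogenase, is encoded by 4 nuclear genes alone. All 4 had a fitted fold change below 0, none passed the test and none was at an unadjusted p under 0.05. Sdha, the flavoprotein that oxidises succinate, had 399, 286, 276, 326 and 307 CPM in HKO replicates 1 to 5, against 409, 552, 281, 363 and 350.4 CPM in flox replicates 1 to 5. The groups overlapped through HKO replicate 1 and flox replicate 3, and flox replicate 2 was the highest library. The log2 fold change was -0.30 ± 0.18 (interval -0.69 to 0.095, edgeR adjusted p = 0.454), and without flox replicate 2 it was -0.14. Sdhc, one of the membrane anchors that hold the ubiquinone site, had 175, 149, 159, 133 and 175 CPM in HKO replicates 1 to 5, against 190.5, 218, 186, 167 and 154 CPM in flox replicates 1 to 5. The groups overlapped through flox replicates 4 and 5, which lay within the HKO range. Its log2 fold change was -0.21 ± 0.14 (edgeR adjusted p = 0.482).

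Sdhb, the iron-sulphur subunit, had 187, 186, 181, 141 and 192 CPM in HKO replicates 1 to 5, against 204, 214, 187, 199.5 and 118 CPM in flox replicates 1 to 5. HKO replicate 4 and flox replicate 5 each lay well below the rest of their group. The log2 fold change was -0.057 ± 0.17 (interval -0.42 to 0.30). Sdhd, the other membrane anchor, had 176, 126, 119, 125 and 120.3 CPM in HKO replicates 1 to 5, against 118, 189, 122, 150.1 and 139 CPM in flox replicates 1 to 5. HKO replicate 1 stood well above the other HKO libraries, and all 5 lay within the flox range. The log2 fold change was -0.10 ± 0.16 (interval -0.46 to 0.25). The direction of Sdhb and Sdhd, but not that of Sdha and Sdhc, depended on single libraries. Flox replicate 2 was the highest library of the series for all 4 genes. Without it, Sdhb lay at 0.0017 and Sdhd at 0.014, while Sdha and Sdhc both lay at -0.14. The median of complex II was then -0.069. Without HKO replicate 4 Sdhb lay at 0.017. As a share of all counts, before any scaling between libraries, complex II took 0.0758 ± 0.00853% in HKO and 0.0927 ± 0.0111% in flox (mean ± SD, n = 5 each). The groups overlapped, at 0.0666 to 0.0895% in HKO and 0.0834 to 0.112% in flox, where flox replicate 2 was highest. With library totals alone the median log2 fold change of all genes was -0.099, a shift that these shares include. The promoters of Sdha (chr13:74350191-74350490, minus strand) and Sdhd (chr9:50603800-50604099, minus strand; both GRCm38.p6) are shown as examples with several matches. Read 5′ to 3′ along the gene, Sdha has 3 matches to the motif of NRF1. Sdhd has 1 match each to the motifs of NRF1, the ETS factors and ERR, in that order.
Sdha: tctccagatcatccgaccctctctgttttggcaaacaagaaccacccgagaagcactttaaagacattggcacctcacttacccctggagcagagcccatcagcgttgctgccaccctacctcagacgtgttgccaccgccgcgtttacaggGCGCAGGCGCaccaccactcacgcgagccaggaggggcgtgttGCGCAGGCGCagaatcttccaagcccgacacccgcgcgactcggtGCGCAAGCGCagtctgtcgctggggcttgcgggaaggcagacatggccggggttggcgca
Sdhd: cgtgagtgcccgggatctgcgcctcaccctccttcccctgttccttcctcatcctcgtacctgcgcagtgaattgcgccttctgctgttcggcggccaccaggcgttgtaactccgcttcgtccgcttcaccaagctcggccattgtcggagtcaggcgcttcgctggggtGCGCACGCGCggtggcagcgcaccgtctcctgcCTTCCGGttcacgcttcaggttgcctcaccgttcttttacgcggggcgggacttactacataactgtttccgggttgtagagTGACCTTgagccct

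**Figure D2:**
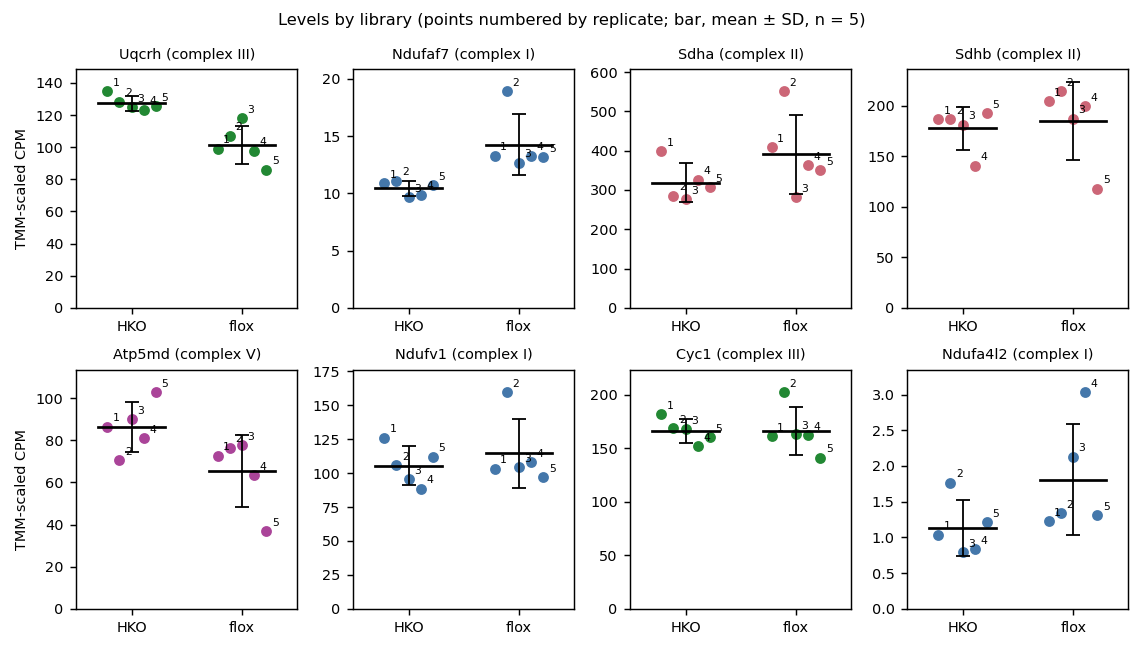
TMM-scaled CPM of 8 genes in each library (vertical axes start at 0), with points numbered by replicate, HKO left and flox right, and bars for the mean ± SD (n = 5 each). The groups are apart for Uqcrh and Ndufaf7 and overlap for the other 6 genes.

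Complex III passes electrons through cytochrome c1 and the Rieske iron-sulphur protein. Cyc1, the gene of cytochrome c1, had 182, 169, 168, 152 and 160.4 CPM in HKO replicates 1 to 5, against 161, 203, 163, 162 and 141 CPM in flox replicates 1 to 5. The HKO libraries lay within the flox range. Its log2 fold change was 0.0015 ± 0.13 with an interval of -0.27 to 0.28. Uqcrfs1, the gene of the Rieske protein, averaged 205 ± 11.6 CPM in HKO and 195 ± 26.7 CPM in flox (log2 fold change 0.069 ± 0.13). Uqcrc1 and Uqcrc2, the core proteins that face the matrix, lay at -0.045 and -0.043. The 5 small subunits had a median of 0.17, with 4 above 0.

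Among the small subunits was Uqcrh, the acidic hinge protein that helps cytochrome c1 pass electrons to cytochrome c. It had 135, 128, 125, 123 and 125 CPM in HKO replicates 1 to 5, against 99.1, 107, 118, 97.7 and 85.9 CPM in flox replicates 1 to 5. Every HKO library was above every flox library, and the HKO libraries lay close together. The means were 127 ± 4.64 CPM in HKO and 102 ± 11.8 CPM in flox, a log2 fold change of 0.33 ± 0.12 (interval 0.069 to 0.58, unadjusted p = 0.0167, edgeR adjusted p = 0.164), and the adjusted p ran from 0.0620 to 0.398 over the alternatives. Uqcrh varied least within groups of all 89 genes, with a pooled SD of 0.12 on the log2 CPM scale. Cyc1 was close to it, at 0.15. Uqcr11, another small subunit, had 86.7, 55.9, 78.1, 36.8 and 61.9 CPM in HKO replicates 1 to 5, against 28.8, 120.4, 84.5, 58.7 and 38.1 CPM in flox replicates 1 to 5. Its flox libraries covered the whole HKO range, and its log2 fold change was -0.049 ± 0.34 (interval -0.78 to 0.68) with a pooled SD of 0.68. Uqcr10 averaged 87.1 ± 9.51 CPM in HKO and 77.5 ± 19.3 CPM in flox (log2 fold change 0.17 ± 0.17) and Uqcrq 244 ± 48.0 CPM in HKO and 226 ± 81.3 CPM in flox (0.11 ± 0.23). The promoter of Uqcrh, at chr4:116075021-116075320 on the minus strand of GRCm38.p6, holds 1 match to the ETS motif.
Uqcrh: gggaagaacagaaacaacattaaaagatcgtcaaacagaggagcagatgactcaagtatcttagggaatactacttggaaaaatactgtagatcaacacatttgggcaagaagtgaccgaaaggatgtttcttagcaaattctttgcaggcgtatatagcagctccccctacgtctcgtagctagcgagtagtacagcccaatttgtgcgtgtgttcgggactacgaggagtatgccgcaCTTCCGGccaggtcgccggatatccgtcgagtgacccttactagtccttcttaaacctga

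Complex IV had 19 members, of which 12 were tested and 9 had a fitted fold change above 0. Its catalytic subunits are encoded by the mitochondrial genome, and the nuclear genes encode the smaller subunits around them. Cox4i1, the largest nuclear subunit, averaged 325 ± 41.2 CPM in HKO and 304 ± 65.4 CPM in flox (log2 fold change 0.10 ± 0.17, edgeR adjusted p = 0.837). Cox6a1 had the highest level of the complex, at 348 CPM per kilobase in HKO and 351 in flox, and its means were 244 ± 36.6 CPM in HKO and 246 ± 71.8 CPM in flox (log2 fold change -0.014 ± 0.19). Cox6c had the largest fold change of the complex. It had 201, 178, 234, 177 and 228 CPM in HKO replicates 1 to 5, against 166, 187, 215, 151 and 104 CPM in flox replicates 1 to 5. HKO and flox overlapped, with flox replicate 5 the lowest library (log2 fold change 0.31 ± 0.18, edgeR adjusted p = 0.435). Without that library the value was 0.18. Cox6c overlaps Vps13b on the other strand over 5344 bases, and Vps13b had 20.4 percent as many counts. Cox8a, at the other end, averaged 128 ± 30.0 CPM in HKO and 138 ± 53.9 CPM in flox (-0.10 ± 0.24, interval -0.63 to 0.42). Cox7a2l, a factor known for joining complexes III and IV into supercomplexes, lay at -0.0080.

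Several complex IV subunits have copies known from muscle or testis or from hypoxic tissue, and these were nearly silent. Cox4i2, the hypoxia-related copy of Cox4i1, had 1 count in all HKO libraries and 10 in all flox libraries. The muscle copies Cox6a2, Cox7a1 and Cox8b had 8, 36 and 7 counts in HKO and 3, 45 and 11 in flox. Cox6b2, known from testis, had 41 counts in each group. Cox7b2 and Cox8c had no count in any library, where 3 counts would have been 0.156 to 0.195 CPM before scaling. None of these was tested. Nor were Ndufb11b and a second Atp5o row, both with no count. Summed over 10 genes, striated muscle markers reached at most 0.441 CPM in HKO libraries and 0.458 CPM in flox libraries.

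Complex V splits into a catalytic head (F1), a ring of c subunits in the membrane, and the stalk and membrane proteins that hold them together. Atp5a1 and Atp5b, the alpha and beta subunits of the head, had the highest levels of the complex by the table's gene lengths, at 234 and 191 CPM per kilobase in HKO and 262 and 205 in flox. Atp5a1 averaged 735 ± 82.3 CPM in HKO and 823 ± 173 CPM in flox (log2 fold change -0.16 ± 0.17, edgeR adjusted p = 0.686), and Atp5b 810.1 ± 104 CPM in HKO and 869.5 ± 195 CPM in flox (-0.10 ± 0.17). The 5 F1 genes had a median of -0.013. The c-ring genes Atp5g1, Atp5g2 and Atp5g3, which differ in their import sequences but encode the same mature protein, had a median of 0.050. Atp5g3 averaged 317 ± 34.4 CPM in HKO and 303 ± 56.0 CPM in flox (0.063 ± 0.15). Copies of Atp5g1, Atp5h and Atp5l elsewhere in the genome had 32.1, 18.8 and 47.9 percent as many counts as the genes themselves, so their own values are uncertain.

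The 9 tested stalk and membrane genes all had a fitted fold change above 0, against 51.0% of all genes tested. Their median was 0.31, with a range of 0.097 to 0.40. These genes share the same 10 libraries and are not independent. Their coding lengths ran from 174 to 768 bases, and of the 44 members of all complexes with up to 433.5 coding bases, 35 were above 0. Under the alternatives 9 of the 9 were above 0, except 8 with library totals alone, without flox replicate 1 and without flox replicates 1 and 5 together. None passed the test or reached an unadjusted p under 0.05. Atp5md, a small membrane subunit linked to dimers of the enzyme, had 86.6, 70.5, 90.1, 81.0 and 103 CPM in HKO replicates 1 to 5, against 72.8, 76.5, 77.7, 63.5 and 36.9 CPM in flox replicates 1 to 5. HKO replicate 2 lay within the flox range, the other HKO libraries lay above all flox libraries, and flox replicate 5 was the lowest. The log2 fold change was 0.40 ± 0.19 (interval -0.0087 to 0.80, unadjusted p = 0.0544, edgeR adjusted p = 0.310). Atp5h, Atp5l and Atp5k lay at 0.34, 0.31 and 0.37. Flox replicate 5 was the lowest of the 10 libraries for 11 of the 17 complex V genes, and it was also the lowest flox library for hepatocyte markers (mean centred score -0.44) and red blood cell markers (-1.86) and the highest for stellate cell (1.04) and cholangiocyte markers (1.25). The part of that library's composition in these values was not tested.

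Across complexes, genes with short coding sequences had the higher fold changes. Over the 88 genes with a coding length in GENCODE M21, the log2 fold change was lower for longer genes (Spearman rho -0.50, Pearson r on log2 length -0.47), a description across genes that share all 10 libraries and are not independent. Over 12116 tested coding genes rho was -0.070. The 44 genes up to the median length of 433.5 bases were 0.15 at the median on the log2 scale, with 35 above 0, and the 44 longer genes -0.011, with 20 above 0. Among the other tested coding genes split at the same length, 710 shorter genes had a median of 0.045 and 11318 longer ones -0.012. Shorter members also varied more, with a median pooled SD of 0.35 on the log2 scale against 0.25 for longer members and 0.33 for all genes tested. The split was chosen after the values were seen.

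**Figure D3:**
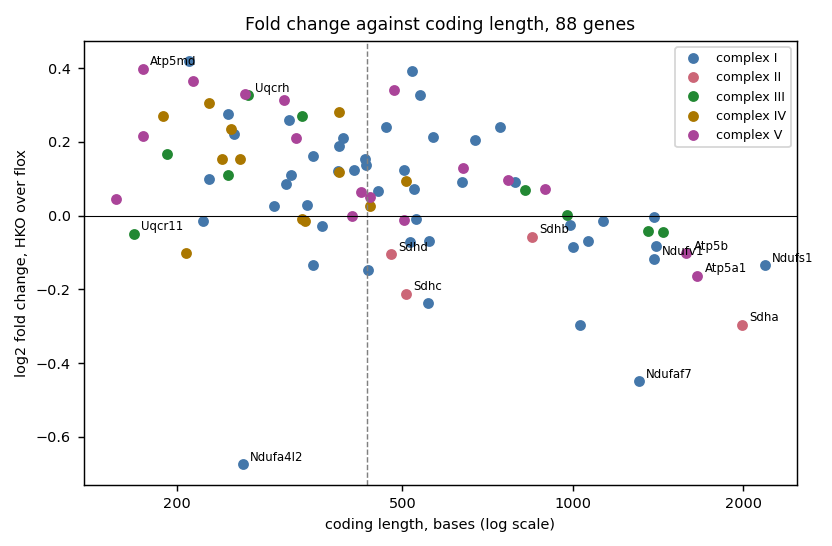
Log2 fold change, HKO over flox (vertical axis), of 88 genes against the coding length in bases of their principal transcript (horizontal log axis), in colours by complex, with a dashed line at the median length of 433.5 bases. Genes left of the line lie mostly above 0, and the longest ones at or below it.

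The strength of the pattern with length varied with the libraries included. The score of longer members minus that of shorter members was -0.11, 0.045, -0.25, 0.060 and -0.15 in HKO replicates 1 to 5, against 0.34, -0.056, -0.24, 0.12 and 0.24 in flox replicates 1 to 5. A score is the mean over genes of log2 CPM centred on the 10 libraries. Flox replicates 1 and 5 were highest, and the other 3 flox libraries lay within or near the HKO range. The same difference over all other coding genes was also highest in those libraries, at 0.20 and 0.22, while the remaining 8 libraries spanned -0.14 to 0.061. Leaving out 1 library at a time gave rho from -0.62 (without flox replicate 2) to -0.33 (without flox replicate 1), with -0.44 without flox replicate 5. Without both flox replicates 1 and 5, an alternative added after the data were seen, rho was -0.19. The median of the 89 genes was then -0.072, and 29 were above 0. As these 2 libraries had the highest scores, leaving them out had to weaken the pattern and does not test it. The sources used here give no RNA integrity values, and their part in this pattern was not tested.

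The chain varied more between libraries of a group than between groups. The difference of the complex I scores was 0.080, HKO minus flox, with a pooled SD of 0.22. The complex I score was 0.16, 0.044, 0.083, -0.22 and 0.13 in HKO replicates 1 to 5, against -0.30, 0.26, 0.20, -0.025 and -0.33 in flox replicates 1 to 5. The complex IV score was 0.20, -0.060, 0.20, -0.18 and 0.25 in HKO, against -0.34, 0.35, 0.23, -0.18 and -0.46 in flox. In both complexes the HKO libraries lay inside the range of the flox libraries, and the scores of complexes III and V had the same order at their ends. Complex II ran from -0.23 to 0.17 in HKO and from -0.17 to 0.44 in flox. For single genes, flox replicate 5 was the lowest of the 10 libraries for 44 of the 89 and flox replicate 1 for 23. Flox replicate 2 was the highest for 46 genes. The SD of CPM was larger in flox than in HKO for 83 of the 89, and for 46 the whole HKO range lay inside the flox range. These counts were not made over all genes tested, so they do not set the chain apart. Over genes of the whole table with at least 20 counts in a pair of libraries, flox pairs also differed more. Their chi-square per degree of freedom was 55.4 to 97.0, against 24.6 to 79.2 for HKO pairs. The shorter genes Ndufs6, Cox5b and Uqcr11 were among the most variable, with pooled SDs of 0.65, 0.59 and 0.68, and Ndufa12, at 0.71, varied with a library order of its own.

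**Figure D4:**
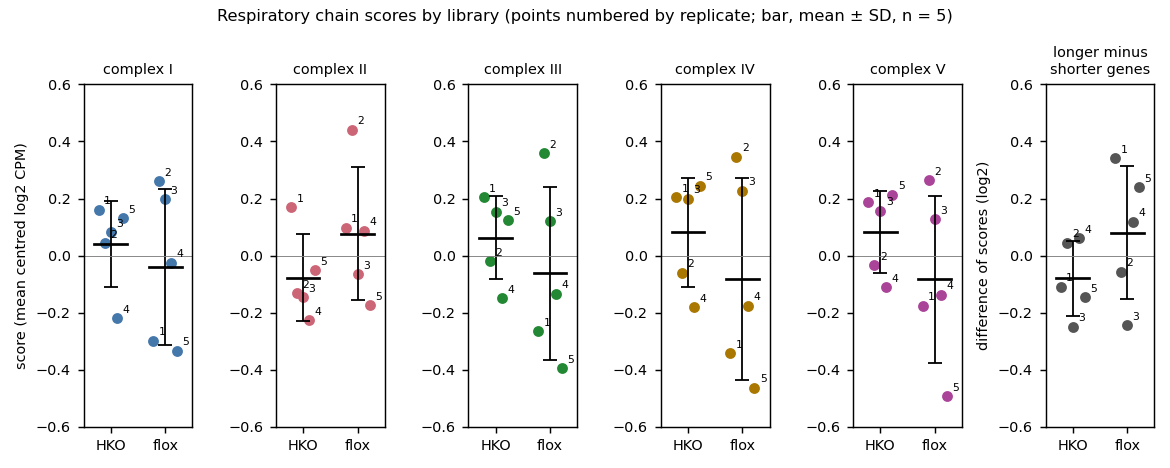
Score of each complex by library, as the mean of centred log2 CPM over its tested genes (vertical axis), and in the right panel the score of longer minus shorter genes. Points are numbered by replicate, HKO left and flox right, with bars for the mean ± SD (n = 5 each), and flox replicates 1, 2 and 5 form the extremes of most panels.

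**Figure D5:**
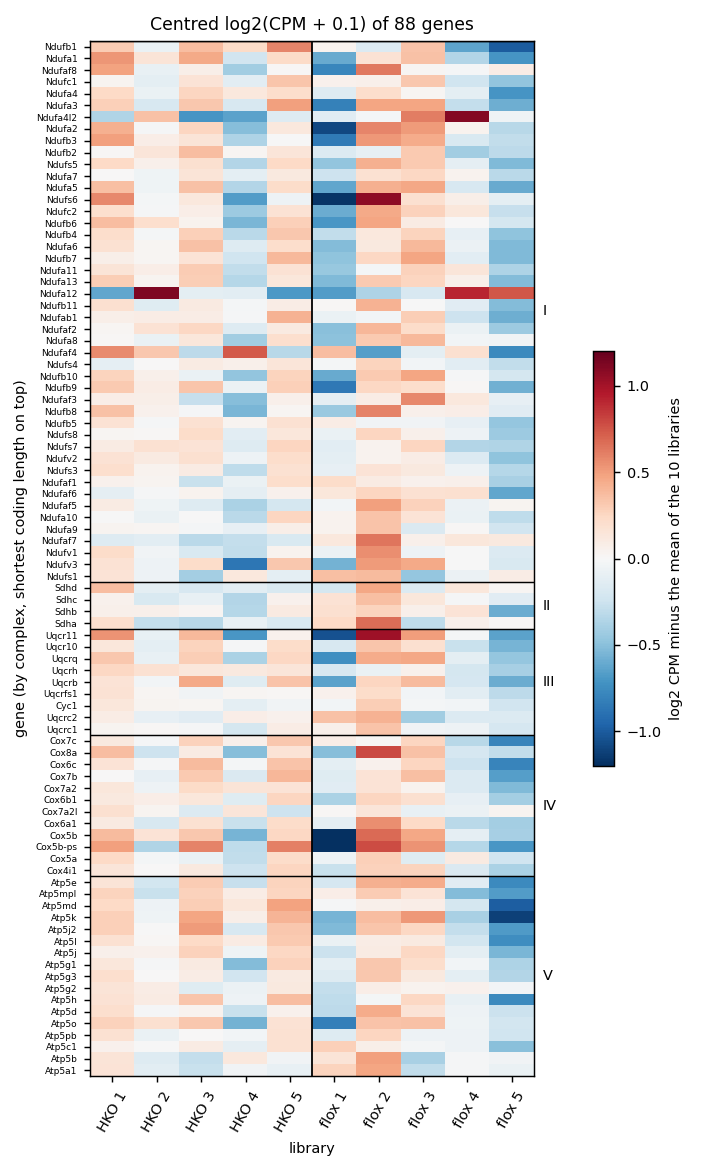
Log2(CPM + 0.1) of 88 tested genes (rows, by complex and within a complex by coding length) in the 10 libraries (columns, HKO left of the line), each minus its mean over the libraries. Colours end at 1.2 in either direction, which 1 of the 880 values passes, and whole columns such as flox replicates 2 and 5 are mostly of 1 colour across complexes.

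Promoters of the chain were searched for motifs of factors known to drive these genes: GCGC and TGCGC with 1 base of any kind between them for NRF1, CCGGAAG for ETS factors such as GABPA, AAGGTCA for ERR and AANATGGCG for YY1, on both strands, where N is any base as well. RefSeq windows on GRCm38.p6 matched 77 of the 98 genes by symbol. Of the 78 promoters of tested members, 25.6% held the NRF1 motif, 24.4% the ETS motif, 10.3% the ERR motif and 14.1% the YY1 motif, and 56.4% held at least 1 of them. Among 32851 promoters of all genes the shares were 4.6%, 8.86%, 4.72% and 2.38%, and 18.5% for any. Among the 13042 promoters of the other tested genes they were 9.31%, 16.6%, 3.51% and 4.7%, and 29.8% for any. By complex, any motif was found in 53.5% of 43 promoters for complex I, all 3 for complex II, 3 of 5 for complex III, 33.3% of 9 for complex IV and 66.7% of 18 for complex V. The 3 NRF1 matches of Sdha and the single ETS match of Uqcrh are those in capitals above. These are matches of letters, not measured binding.

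Factors named for these motifs and their coactivators did not pass the test either. Of 17 regulators of respiratory chain genes, 0 passed edgeR's test and 2 were at an unadjusted p under 0.05, with 14 values above 0 and a median of 0.22. Among all genes tested, 16.9% were at an unadjusted p under 0.05 and 51.0% were above 0. Ppargc1a, the coactivator PGC-1alpha, averaged 14.8 ± 4.55 CPM in HKO and 15.5 ± 6.68 CPM in flox (log2 fold change -0.060 ± 0.27). Esrra, which encodes ERRalpha, averaged 29.5 ± 9.28 CPM in HKO and 29.6 ± 6.98 CPM in flox (-0.0079 ± 0.22), and Nrf1 9.77 ± 1.85 CPM in HKO and 9.45 ± 0.811 CPM in flox (0.048 ± 0.17). Gabpa lay at 0.29 ± 0.15 and Tfam, which packages and transcribes mitochondrial DNA, at 0.24 ± 0.14, with edgeR adjusted p of 0.345 and 0.434. Gabpa overlaps the complex V gene Atp5j on the other strand over 701 bases and had 35.7 percent as many counts as Atp5j.

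The partners of the chain outside the naming rule gave few calls. Beside the counts that follow, 3.99% of all genes tested passed, 16.9% were at an unadjusted p under 0.05 and 51.0% were above 0. The assembly factors of complexes II, III, IV and V, and the other assembly factors of complex I, had 0 of 4, 0 of 6, 0 of 21, 0 of 4 and 0 of 9 past edgeR's test, and 2 in all, both for complex I, at an unadjusted p under 0.05. Their medians were -0.066, 0.0068, -0.032, -0.16 and 0.030. The values of the other complex I assembly factors ran from -0.66 to 0.19, and their smallest edgeR adjusted p was 0.0871. The list of mobile electron carriers held Cycs, genes of ubiquinone synthesis and electron transfer flavoprotein genes. Of its 14 genes 0 passed and 4 were at an unadjusted p under 0.05, with 8 values below 0, a median of -0.20 and a range of -0.66 to 0.36. Cycs, the gene of cytochrome c and the highest of these, had 72.3, 64.3, 63.5, 66.1 and 68.9 CPM in HKO replicates 1 to 5, against 40.6, 58.6, 65.0, 54.0 and 43.6 CPM in flox replicates 1 to 5. Only HKO replicates 2 and 3 lay below a flox library, replicate 3 (log2 fold change 0.36 ± 0.14, edgeR adjusted p = 0.211). Of 13 citric acid cycle genes 0 passed and 2 were at an unadjusted p under 0.05, with 9 values below 0 and a median of -0.045. Cs, citrate synthase, had 97.6, 84.3, 79.5, 87.1 and 93.9 CPM in HKO replicates 1 to 5, against 106, 117, 103, 106 and 108 CPM in flox replicates 1 to 5. All HKO libraries lay below all flox libraries (log2 fold change -0.29 ± 0.11, edgeR adjusted p = 0.199). Of 28 genes of the mitochondrial ribosome, 0 passed and 1 was at an unadjusted p under 0.05, with a median of 0.046.

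The subunits encoded by the mitochondrial genome, the partners of these nuclear genes inside the complexes, had 12 of 12 tested values above 0 with TMM scaling, a median of 0.30, and 4 at an unadjusted p under 0.05. Over all genes tested, 51.0% were above 0 and 16.9% were at an unadjusted p under 0.05. The hepatocyte markers had a median of 0.28. One, mt-Nd3 of complex I, was higher in HKO past the test. It had 54.4, 40.3, 79.6, 43.5 and 52.0 CPM in HKO replicates 1 to 5, against 36.5, 29.2, 33.6, 30.3 and 35.2 CPM in flox replicates 1 to 5, so that every HKO library was above every flox library (log2 fold change 0.71 ± 0.18, edgeR adjusted p = 0.0356). Mitochondrial genes took 6.99 ± 0.784% of counts in HKO and 5.91 ± 1.14% in flox, and flox replicate 1, at 7.90%, lay with the HKO libraries (mean ± SD, n = 5 each). For each mitochondrial count there were 0.143 ± 0.0115 counts of the 98 nuclear genes in HKO and 0.181 ± 0.0456 in flox, with the flox libraries on both sides of the HKO range.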

How the data were processed

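RNA had been isolated from liver and made into libraries with a VAHTS kit (per the labels' protocols). The values used were raw counts per gene, whole numbers deposited by the authors. The submitters' processing notes name mm10 and DESeq2. The sources used here do not give the aligner, the counting program or the use of strand. Of the 98 genes, all were found by identifier in GENCODE M21 (GRCm38), and 3 had the same start and end there, so the build of the table's coordinates is uncertain and none are printed.

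HKO was compared with flox over all genes by edgeR 4.0.16 (quasi-likelihood F-test, two-sided, TMM scaling, filterByExpr by group, R 4.3.3). Adjusted p are Benjamini-Hochberg values over 14068 genes, with a threshold of 0.05. The SE of a log2 fold change was derived from its F statistic, and an interval is its 95% confidence interval. The genes named were Acss2, in each complex the 3 highest per kilobase, the largest rise and fall and the smallest p, all of complex II, the core subunits and restricted paralogues, and called or preset genes of the other 18 lists. Ndufa6, Ndufa7, Ndufa12, Ndufaf3, Ndufaf4, Ndufaf5, Ndufs6, Uqcrc1, Uqcrc2, Cox5b, Cox5b-ps, Cox7a2l, Atp5g1, Atp5g2, Atp5h, Atp5k and Atp5l are outside that rule and were chosen after their values were seen. Results of 1 gene are not reported here, although counts and medians over the genes include it. Members and lists were chosen with earlier results of these data known. Near-identical copies (at least 95% identity over 50% of a transcript) were found with BLAST 2.17.0 for 16 members. Same-numbered libraries of the groups were not treated as pairs. Pairs of libraries within a group differed by more than sampling noise (smallest chi-square per degree of freedom 24.6).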

Additional observations from a re-analysis of the deposited data

Results flagged for a closer look

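Of 72 groups of 5 libraries, over 36 named quantities, 5 held a library whose gap to its nearest neighbour passed 0.71 of the group's range, and chance flags about 1 in 20 groups. Ndufaf7 had 18.9 CPM in flox replicate 2, against 12.7 to 13.3 CPM in the other flox libraries. Ndufv1 had 159.9 CPM in the same library, against 97.1 to 108 CPM. Sdhb had 140.6 CPM in HKO replicate 4, against 181 to 192 CPM in the other HKO libraries. Sdhb also had 118 CPM in flox replicate 5, against 187 to 214 CPM in the other flox libraries. Sdhd had 176 CPM in HKO replicate 1, against 119 to 126 CPM in the other HKO libraries.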

How the results depend on the processing

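Under each alternative run, 0 of the respiratory chain genes passed an adjusted p of 0.05. The smallest adjusted p of a member over these was 0.0550, with library totals alone, and in DESeq2 it was 0.0620. Over all genes the count that passed was 561 of 14068 tested (3.99%), against 1112 of 28675 (3.88%) in DESeq2. The count was 840 of 28708 (2.93%) without a filter on low counts and 667 of 14068 (4.74%) with library totals alone. It was 289 to 673 when 1 library was left out, and 203 without flox replicates 1 and 5 together, an alternative chosen after the data were seen. Without both, the medians of complexes I to IV lay below 0, at -0.11, -0.24, -0.0035 and -0.048. The log2 ratio of Ndufa4l2 to Ndufa4 was -1.16 to -0.73 when 1 library was left out.

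Some named genes near 0 changed sign. Library totals alone moved the median of all genes to -0.099 (0.0083 with TMM), a shift of the scale that all genes share, and the log2 fold changes were -0.033 for Atp5g3, -0.0051 for Cox4i1, -0.096 for Cyc1, -0.076 for Ndufa2, -0.026 for Ndufb11, -0.0082 for Ndufs3, -0.0025 for Ndufs8 and -0.028 for Uqcrfs1. Without flox replicates 1 and 5 they were -0.072 for Atp5g3, -0.069 for Cox4i1, -0.081 for Cyc1, -0.31 for Ndufa2, -0.060 for Ndufb11, -0.019 for Ndufs3, -0.033 for Ndufs8, -0.0035 for Uqcr10 and -0.18 for Uqcrq. Cyc1 was at -0.0020 with at least 1 CPM in 5 libraries. The cause of the changes other than those with library totals was not tested.

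Leaving out 1 library at a time gave -0.20 to 0.025 for Atp5b, -0.0061 to 0.16 for Atp5g3, -0.10 to 0.15 for Cox6a1, -0.22 to 0.13 for Cox8a, -0.048 to 0.083 for Cyc1, -0.16 to 0.19 for Ndufa2, -0.033 to 0.20 for Ndufb11, -0.19 to 0.033 for Ndufv1, -0.18 to 0.017 for Sdhb, -0.22 to 0.014 for Sdhd, -0.24 to 0.28 for Uqcr11 and -0.026 to 0.25 for Uqcrq. Among named genes that kept their sign, it gave -0.39 to -0.14 for Sdha, -0.89 to -0.40 for Ndufa4l2, -0.24 to -0.053 for Ndufs1, -0.24 to -0.052 for Atp5a1, 0.16 to 0.37 for Ndufa4, 0.18 to 0.42 for Cox6c, 0.069 to 0.29 for Uqcr10 and 0.25 to 0.47 for Atp5md.

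Same-numbered HKO and flox libraries shared only a number, with correlations of their deviations of -0.12 to 0.24, and 1 of 5 fitted its own number best. With the replicate number as a block, 448 genes passed and 0 members did (smallest adjusted p 0.189), and Cox6a1 and Uqcr11 lay at 0.021 and 0.065.

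Of the tested members, Ndufa4l2 had the fewest counts, 91 in HKO and 160 in flox. The spread between 5 libraries a group set the width of the intervals. Pseudogene rows with the same name pattern took 0.198% as many counts as the members.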
